A study of Arabidopsis thaliana with 12 samples.

Results

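The genes described here are 3 nuclear genes for proteins of the large subunit of the plastid ribosome, L29 (AT5G65220), L17 (AT3G54210) and L5 (AT4G01310). They were chosen as the array features that the platform annotation ties to exactly 1 gene, that gene being one of the 3, which gave 3 features out of 3439 on the array and out of 692 with exactly 1 gene. The study measured total RNA of wild-type Arabidopsis thaliana, ecotype Columbia 0, by expression array with 1 channel per sample. One group was light adapted, and the other had spent 1 h in darkness and was then returned to light. For the time back in light the labels disagree, with 2 h in titles and descriptions but 1 h in the source names. Each group has 6 arrays, numbered 1 to 6 in both. The labels name no tissue, age or growth condition, and nothing in them shows that replicates are separate plants, so p-values here measure the spread among these arrays alone, which may be technical. The series holds no sample from the dark period itself, so effects of the dark hour and of the renewed light cannot be told apart. In total RNA from plants, fewer cells that express a gene and less of its RNA per cell cannot be told apart either.

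Plastids translate their own small genome on ribosomes of a bacterial type, which make core subunits of the photosystems, the ATP synthase and the large subunit of Rubisco. The ribosomal RNAs are transcribed in the plastid, whereas many of the ribosomal proteins are encoded in the nucleus, made in the cytosol and imported. Building the particle therefore draws on transcripts of both genomes. In the ribosome of Escherichia coli, the counterparts of L29 and L17 sit around the opening of the tunnel through which the new protein chain leaves, and L29 lies beside L23, where chaperones and targeting factors dock. The counterpart of L5 binds the 5S ribosomal RNA in the central protuberance at the top of the large subunit.

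The 3 transcripts did not move together. L29 was far lower in recovering than in light-adapted plants on each scale examined. L17 was higher in recovery in each same-numbered pair of arrays, though its call depended on the scaling and on single arrays. L5 did not pass the test in the fit across all features, and the sign of its difference turned with the scaling.

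Intensities are the deposited values, in arbitrary units from 0 to 100, read here as linear since none is negative and many are exactly 0. On each array 3 to 8 features share the highest value of 100, a ceiling whose meaning is not known, and the 3 genes lie far below it. How the background was corrected and the arrays normalized is not given in the sources used here. Both the scale and any centring therefore stay unknown. The median intensity of an array ran from 0.0710 to 0.103 in the light-adapted group and from 0.0358 to 0.0400 in the recovery group, while summed intensities covered nearly the same range in both, 2286 to 3265 and 2288 to 3314. A difference in deposited intensity therefore does not have the same sign as a difference relative to the rest of the array in every case, and the values are given on both scales. Precision is limited by the number of arrays, since array values have no depth.

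L29 gave a brighter signal in light-adapted than in recovering plants on every array. Its deposited intensity on light-adapted arrays 1 to 6 was 0.972, 0.879, 1.08, 1.15, 1.12 and 1.05. On recovery arrays 1 to 6 it was 0.0651, 0.0535, 0.0576, 0.0506, 0.0430 and 0.161. The groups did not overlap, and the lowest light-adapted array lay well above recovery array 6, which was the highest of its group. The light-adapted mean was 1.04 ± 0.1005 and the recovery mean 0.0718 ± 0.0443 (SD, n = 6 each), 14.5-fold lower. Among the 2364 features that could be tested, those above 0 on at least 4 arrays of each group, 21.1% had deposited intensities in recovery below all those of the light-adapted arrays, so a clean separation downward was common on this scale.

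**Figure D1:**
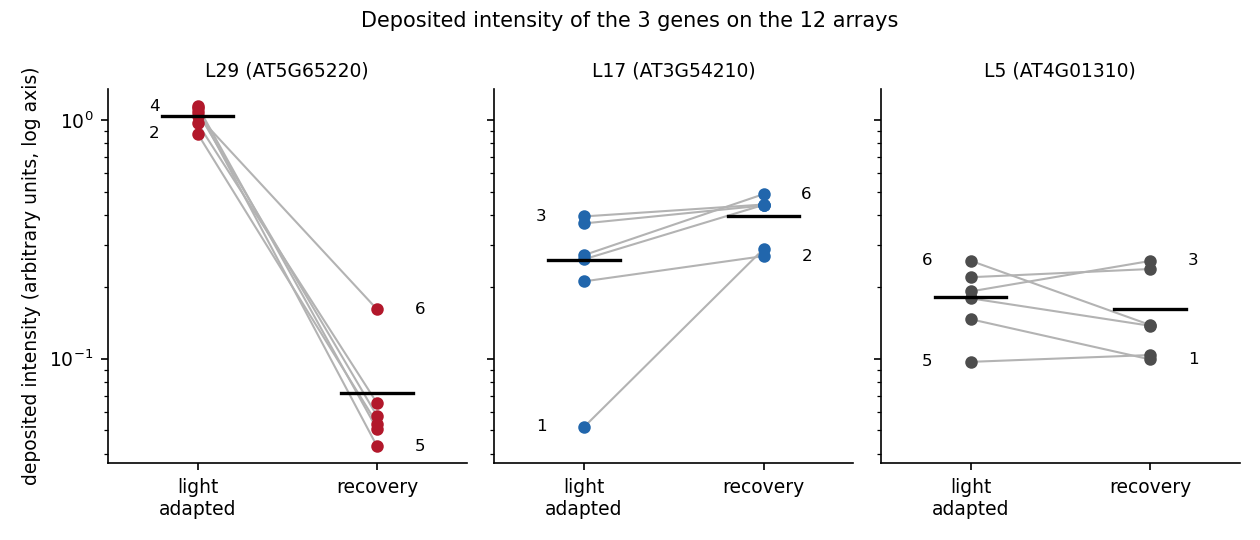
Deposited intensity of L29, L17 and L5 on each array, on a log axis in arbitrary units. Points are arrays, grey lines join same-numbered arrays, black bars are group means, and the digits number the lowest and highest array of each group. L29 falls from between 0.879 and 1.15 to between 0.0430 and 0.161, L17 is higher in recovery in 6 of 6 pairs, and L5 is higher in 3 and lower in 3.

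Set against the median of its own array, L29 was also lower in recovery. It stood at 8.72 to 15.8 times the array median in the light-adapted group and at 1.13 to 4.03 times in the recovery group. That median counts the features at 0. Among the features above 0 alone, L29 ranked at the 88.2nd to 91.1st percentile in light-adapted arrays, at the 38.5th to 49.7th in recovery arrays 1 to 5 and at the 71.1st in recovery array 6. Such places compare signals of different features and are not transcript amounts. Between light-adapted arrays its quantile-normalized log2 level varied little, with an SD of 0.193 against a median SD of 0.693 over the features tested. In recovery its SD was 0.697, near the median of 0.590, with array 6 at -2.09 and the other 5 between -3.93 and -3.39.

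The fit across all 2364 features was made in limma on log2 intensities after quantile normalization, which gives every array the same distribution of values, and p-values were adjusted over all features by Benjamini-Hochberg. L29 fell by 3.42 ± 0.302 on the log2 scale (SE, adjusted p = 4.69e-06), with each of the 6 recovery arrays below all light-adapted arrays, as for 13.1% of the features tested. This is a 10.7-fold lower level. Of all features tested, 18.4% were called lower and 18.5% higher at an adjusted p under 0.05, so a call by itself does not set a gene apart. By size, L29 had the 51st lowest difference of the 2364 features, and the 10th lowest of the 452 features with 1 gene. With the replicate block, a term for the number that arrays of both groups share, the limma adjusted p was 0.000351, where 18.0% of features were called lower. On the deposited scale the difference was -4.01 (limma adjusted p = 1.41e-06), where 36.8% were called lower.

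**Figure D2:**
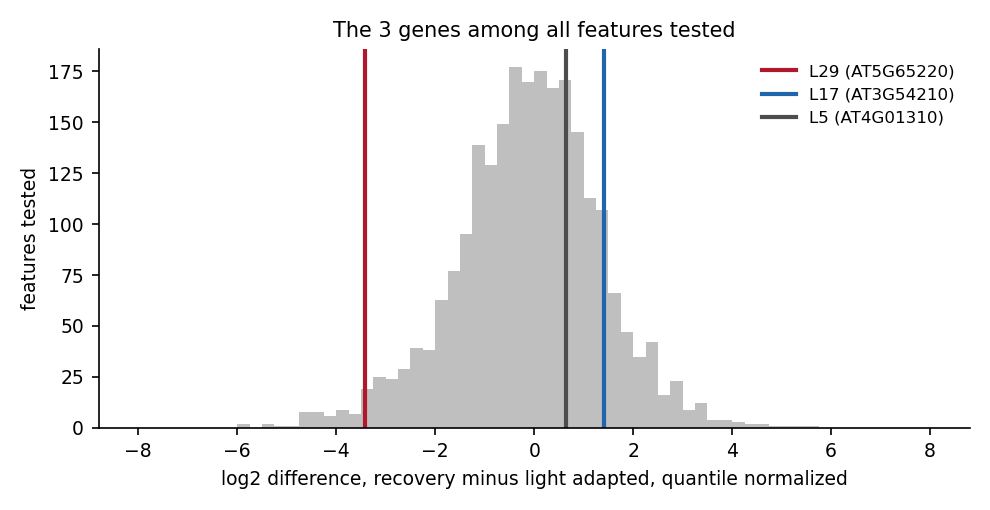
Number of features by log2 difference, recovery minus light adapted, in quantile-normalized values of the 2364 features tested, with the 3 genes as vertical lines. L29, at -3.42, lies in the lower tail, and L5 at 0.63 and L17 at 1.41 lie on the upper side of the main body.

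Pair by pair, L29 was lower in recovery in 6 of 6 pairs on the deposited, the quantile-normalized and the median-centred scale. The deposited log2 differences of pairs 1 to 6 were -3.90, -4.04, -4.24, -4.50, -4.71 and -2.70. The normalized ones were -3.48, -3.55, -3.49, -3.68, -4.13 and -2.16. Pair 6 showed the smallest fall on both scales. Its recovery array was the highest of its group, while its light-adapted array lay within the range of the others. An exact sign-flip permutation test over the 6 pairs gave p = 0.0312, the smallest that 6 pairs can give, on each of the 3 scales (0.0469 after Benjamini-Hochberg adjustment over 3 genes and 3 scales). For background, 35.7% of the features tested were lower in recovery in all 6 pairs on the deposited scale, and 13.8% after quantile normalization.

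The L17 transcript moved the other way, by less and with more spread. Its deposited intensity on light-adapted arrays 1 to 6 was 0.0517, 0.211, 0.395, 0.369, 0.261 and 0.272. On recovery arrays 1 to 6 it was 0.288, 0.269, 0.443, 0.439, 0.441 and 0.490. The groups overlapped on this scale, since light-adapted arrays 3 and 4 were brighter than recovery arrays 1 and 2, and light-adapted array 1 lay far below all others. Means were 0.260 ± 0.123 and 0.395 ± 0.0922 (SD, n = 6 each), 1.52-fold higher in recovery.

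Relative to the array median the separation was wider. L17 stood at 0.502 to 4.06 times the median in light-adapted arrays and at 7.20 to 12.4 times in recovery arrays, with no overlap. The share of all features separated upward on this scale was not counted. For background, limma called 27.3% of the features tested higher after median centring. After quantile normalization the recovery arrays also lay above all light-adapted arrays, which held for 13.3% of the features tested. L17 rose by 1.41 ± 0.491 (SE, limma adjusted p = 0.0398), the 315th highest of 2364 differences and the 60th highest of the 452 features with 1 gene. The limma adjusted p was 0.0364 with the replicate number as a block, where 17.2% of features were called higher. On the deposited scale L17 was at 0.81 and not called (limma adjusted p = 0.152, or 0.0859 with the replicate block), where 9.56% were called higher.

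Every pair had L17 higher in recovery on each of the 3 scales. The deposited log2 differences of pairs 1 to 6 were 2.48, 0.35, 0.17, 0.25, 0.76 and 0.85, and the normalized ones 3.55, 1.09, 0.51, 0.66, 1.31 and 1.32. The size in pair 1 came with the low light-adapted array 1, and in pairs 3 and 4 the deposited rise was below 1.2-fold, at 1.12 and 1.19. The exact sign-flip permutation test again gave p = 0.0312 on each scale (0.0469 adjusted over 3 genes and 3 scales). Higher in all 6 pairs were 11.8% of the features tested on the deposited scale and 16.1% after quantile normalization. Without light-adapted array 1, L17 was at 0.95 (limma adjusted p = 0.0109), so the call held while the estimate fell. Leaving out light-adapted array 2 or any of recovery arrays 1, 3, 4, 5 and 6 ended the call, with limma adjusted p between 0.0506 and 0.0767.

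The L5 transcript showed no common direction in deposited intensity. On light-adapted arrays 1 to 6 it was 0.146, 0.179, 0.191, 0.220, 0.0969 and 0.257, and on recovery arrays 1 to 6 it was 0.0993, 0.137, 0.257, 0.238, 0.104 and 0.139. The groups overlapped over nearly their whole range, and the means were 0.182 ± 0.0560 and 0.162 ± 0.0681 (SD, n = 6 each). Pairs 3, 4 and 5 were higher in recovery and pairs 1, 2 and 6 lower (exact sign-flip permutation p = 0.406).

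Relative to the rest of the array, L5 was higher in most recovery arrays but did not pass in the fit. With features at 0 counted in the median, L5 stood at 1.37 to 3.39 times it in light-adapted arrays. In recovery arrays it stood at 2.73 to 7.17 times, and the overlap came from light-adapted array 6. Quantile-normalized differences of pairs 1 to 6 were 0.56, 0.56, 1.09, 0.80, 0.97 and -0.18, higher in recovery in 5 of 6 pairs (exact sign-flip permutation p = 0.0625). The limma difference was 0.63 ± 0.264 (SE, adjusted p = 0.0779, and 0.0671 with the replicate block). After centring on the median of features above 0 it was 0.80 and passed (limma adjusted p = 0.0380), beside 27.3% of features called higher. On the deposited scale it was -0.20 (limma adjusted p = 0.628). Without light-adapted array 6 alone it was 0.82 and passed (limma adjusted p = 0.0139).

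**Figure D3:**
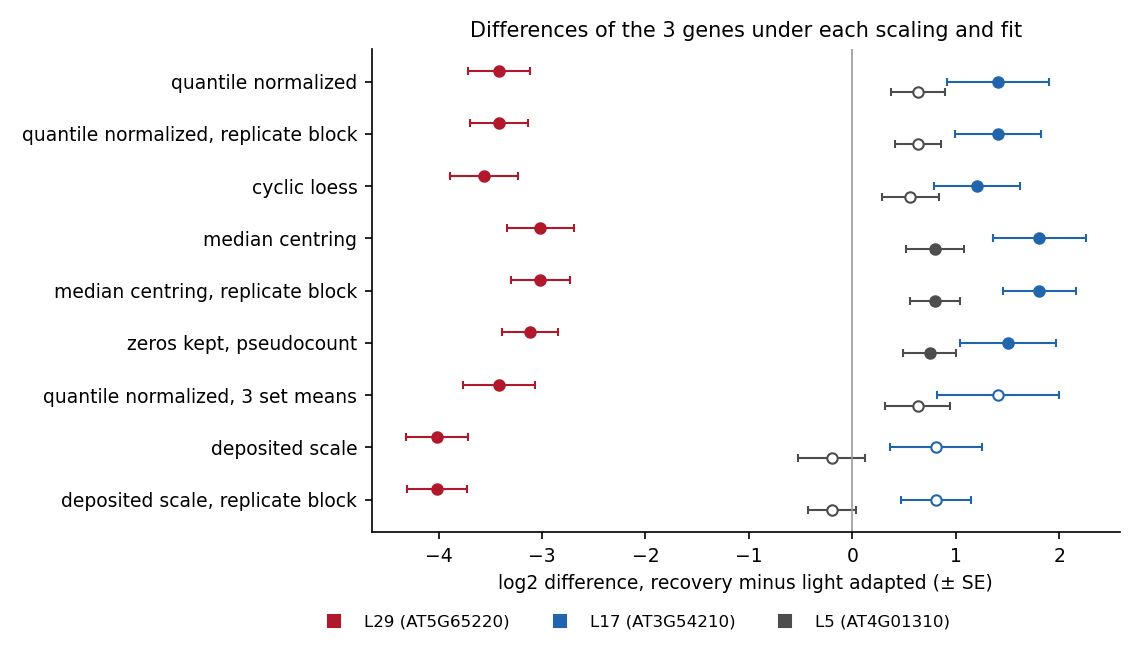
Log2 difference of L29, L17 and L5, recovery minus light adapted, under 9 combinations of scaling and fit. Points are limma estimates, bars are SE, and filled points have a limma adjusted p under 0.05. L29 lies between -4.01 and -3.02 and is filled throughout, L17 between 0.81 and 1.81, and L5 changes sign on the deposited scale.

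The place of a feature in the order of all features of its array does not depend on a scale factor, though it still depends on what the other features do. L29 ranked at the 90.6th to 93.1st percentile of the 3439 features in light-adapted arrays. In recovery it ranked at the 53.0th to 62.5th percentile in arrays 1 to 5 and at the 77.8th in array 6. The mean fell by 30.8 percentile points (exact permutation adjusted p = 0.00325 over the 3 genes). The unadjusted exact permutation p, 0.00216, is the smallest that 6 arrays against 6 can give. The genes were also chosen with earlier results of these data known.

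L17 moved up the order, from a mean of 69.3 ± 17.5 to 85.7 ± 2.43 (SD, n = 6 each), by 16.4 points (exact permutation adjusted p = 0.00325). The wide spread of the light-adapted group came from array 1, at the 34.3rd percentile, next to 69.4 for array 2 and 77.5 to 79.0 for the others. Without light-adapted array 1 the gain was 9.39 points (exact permutation adjusted p = 0.00649). L5 moved from 65.1 ± 6.99 to 75.4 ± 3.85, by 10.3 points (exact permutation adjusted p = 0.0152). With same-numbered arrays taken as pairs, the exact sign-flip permutation test gave adjusted p-values of 0.0469 for L29 and L17 and 0.0625 for L5, so the L5 call was lost. The share of all features that pass either rank test was not counted. A pass by itself therefore does not set L29, L17 or L5 apart.

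**Figure D4:**
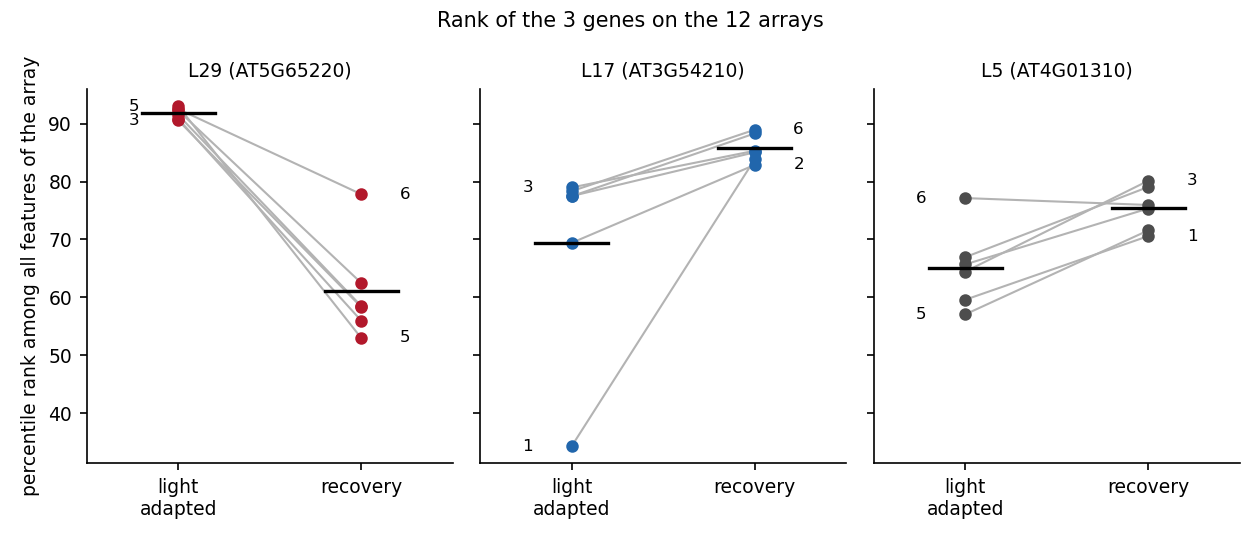
Percentile rank of L29, L17 and L5 among the 3439 features of each array, where higher means brighter. Points are arrays, grey lines join same-numbered arrays, black bars are group means, and the digits number the lowest and highest array of each group. L29 drops from above 90 to between 53.0 and 77.8, whereas L17 ends between 82.9 and 89.0 and L5 between 70.6 and 80.1.

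Whether 2 of the genes changed unequally can be asked within each array, where any common scale factor cancels. An additive background or a non-linear scale would not cancel, and whether these values hold either is not known. The ratio of L29 to L17 was between 2.75 and 18.8 in light-adapted arrays and between 0.0973 and 0.329 in recovery arrays. It shifted by -4.82 on the log2 scale, from 2.24 ± 1.01 to -2.58 ± 0.668 (SD, n = 6 each, exact permutation adjusted p = 0.00325 over the 3 pairs of genes). The groups did not overlap, so the unadjusted p is again the smallest possible, and ratios between other features were not tested. The signal that a feature gives per transcript is not known, so only the shift between groups can be read and not the level of a ratio, nor whether it lies above or below 1.

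The ratio of L29 to L5 shifted by -3.81, from 2.58 ± 0.522 to -1.24 ± 0.934 (SD, n = 6 each, exact permutation adjusted p = 0.00325). Recovery array 6, at a ratio of 1.16, was the highest among recovery ratios otherwise between 0.213 and 0.656, and light-adapted ratios ran from 4.06 to 11.6. L17 and L5 differed less, with a shift of 1.01 in their log2 ratio from 0.34 ± 1.03 to 1.35 ± 0.545 (SD, n = 6 each, exact permutation adjusted p = 0.0433). The L17 to L5 shift did not hold with arrays taken as pairs (exact sign-flip permutation adjusted p = 0.0938), nor on quantile-normalized values, at 0.78 (exact permutation adjusted p = 0.154). It also failed to pass without light-adapted array 1, 2 or 6 or recovery array 1, 2, 5 or 6, at 0.64 to 1.09 (exact permutation adjusted p from 0.0541 to 0.102), and was lowest without light-adapted array 1.

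**Figure D5:**
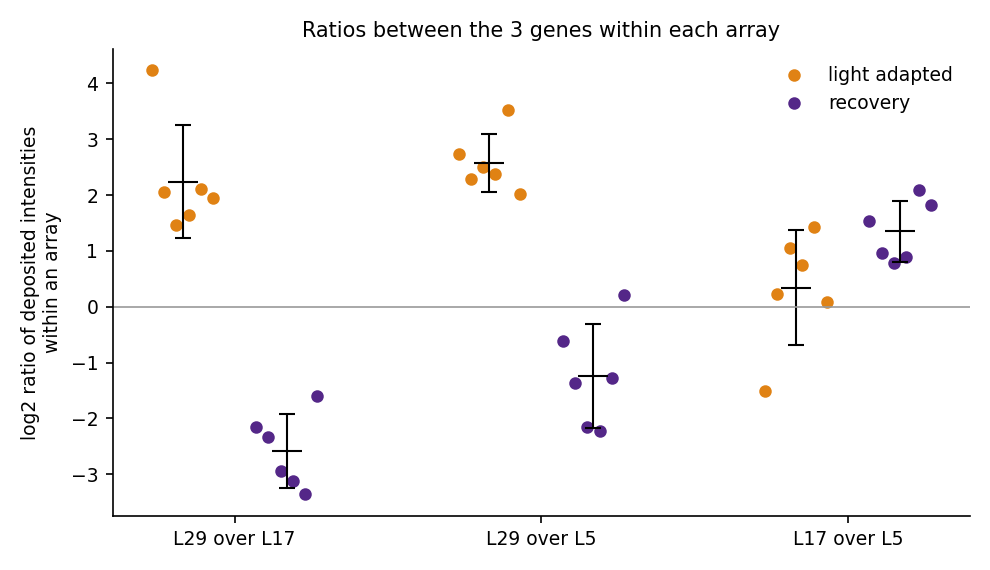
Log2 ratio of deposited intensities of 2 genes within an array. Orange points are light-adapted and purple points recovery arrays, each in order of array number, and black bars give the mean ± SD. L29 over L17 and L29 over L5 are lower on each recovery array than on any light-adapted array, and L17 over L5 overlaps between the groups.

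Arrays 1 and 2, 3 and 4, and 5 and 6 of a group had like summed intensities and are called sets here, a division taken from the data and not from the labels. Sums were 2557 and 2559, 3233 and 3265, and 2286 and 2316 in the light-adapted sets. In the recovery sets they were 2539 and 2593, 3314 and 3287, and 2288 and 2309, so sets of one number were alike in both groups. Within sets, L29 on the light-adapted arrays differed by 1.06- to 1.11-fold, and on recovery arrays by 1.22- and 1.14-fold in sets 1 and 2 but by 3.75-fold in set 3. L17 differed by 4.08-fold within light-adapted set 1 and by 1.01- to 1.11-fold in the other 5 sets. L5 differed by 2.66-fold within light-adapted set 3 and by 1.08- to 1.38-fold in the others. In each gene, then, 1 set of 1 group held arrays well apart from each other. It was recovery set 3 for L29, light-adapted set 1 for L17 and light-adapted set 3 for L5. With 1 mean per set, 3 against 3, L29 kept its call (limma adjusted p = 0.00453), where 8.71% of features were called lower, and L17 lost it (limma adjusted p = 0.148). The exact tests above count 6 arrays per group, and with 3 sets per group no exact test could go below 0.1. Likewise, the sign-flip tests count 6 pairs as separate, and the fit on set means did not match sets between the groups.

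A list of 41 nuclear genes for plastid ribosomal proteins, compiled for this work, had 6 members on features with 1 gene. These were the 3 described and AT1G29070, AT3G13120 and AT1G64510. In the list, AT1G29070 is also a gene of the large subunit, and AT3G13120 and AT1G64510 are genes of the small subunit. None of the last 3 entered the fit, which needed 4 arrays above 0 in each group. Of the 3 tested, 1 rose, 1 fell and 1 did not pass, where 18.5% of all features tested were called higher and 18.4% lower. Their median difference, which is that of L5, was 0.63 against -0.038 over all features tested, and on the deposited scale it was -0.20 against -0.82.

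Each of the 3 untested genes was listed at 0 on 4 or 5 of the 12 arrays. AT1G64510 was at 0, 0, 0.0122, 0, 0.0200 and 0.0158 on light-adapted arrays 1 to 6 and at 0.0250, 0.0133, 0, 0.0523, 0.0363 and 0.0508 on recovery arrays 1 to 6, listed above 0 on 3 and 5 arrays. AT3G13120 ran from 0 to 0.0533 in light-adapted and from 0 to 0.0826 in recovery arrays, above 0 on 5 and 3 of them. AT1G29070 ran from 0 to 0.123 and from 0 to 0.0641, above 0 on 4 and 3. When 2 arrays above 0 per group were enough, AT1G64510 was called higher, at 2.03 ± 0.518 on the log2 scale (SE, limma adjusted p = 0.0187, 15.1% of features called higher). Its light-adapted mean then rests on 3 arrays near 0, so the size is uncertain. AT1G29070, at 1.06, and AT3G13120, at 1.76, did not pass (limma adjusted p = 0.507 and 0.180).

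Other parts of plastid translation could not be followed. Of 17 listed plastid translation and ribosome assembly factors, 0 were on a feature with 1 gene, and 4 features held such a gene together with others. By the names in the reference gene table, 0 of 44 further genes whose name there holds the words ribosomal protein were on a feature with 1 gene. Of 12 listed markers of leaf mesophyll, root, flower, seed and guard cells, 0 were on such features, so the tissue sampled could not be checked and shifts between tissues were not tested.

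The genes with the most similar profiles were sought among 416 other features with 1 gene measured together with each of the 3 on at least 10 arrays. Likeness was the root mean square difference between normalized log2 profiles, each centred on its own mean. For L29 the nearest were AT4G07670 at 0.584 over 11 arrays, AT3G15490 at 0.636 over 10 and AT1G01250 at 0.645 over 11, against a median of 1.92 over the 416. Their own differences were -3.36, -2.10 and -3.35. The profiles span both groups, so likeness to L29 already selects genes that are lower in recovery, and these values describe the choice.

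For L17 the nearest were AT2G37580 at 0.553 over 12 arrays, AT1G77730 at 0.568 over 10, and APS4, which encodes an ATP sulfurylase of sulfate assimilation, at 0.570 over 12, against a median of 1.46. Their differences were 1.11, 1.63 and 0.74, again a description of genes chosen by their profile. For L5 the nearest were CHLM, the magnesium protoporphyrin IX methyltransferase of chlorophyll synthesis, at 0.411, AT2G04700 at 0.415 and AT1G15410 at 0.422, each over 12 arrays, against a median of 1.09. Their differences were 0.34, 0.89 and 0.17.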

How the data were processed

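The authors deposited 1 table of intensity values, 3439 features by 12 arrays; how it was scanned and normalized is not given in the sources used here. Gene names came from the platform annotation, updated through gene identifiers to a RefSeq table of assembly TAIR10.1, in which 690 of the 692 features with 1 gene matched. No genome build is named for the array, so coordinates are left out, and probe sequences were not used here. Intensities were taken to log2 with 0 as missing, quantile normalized, and tested in limma 3.58.1 (R 4.3.3; lmFit, eBayes, Benjamini-Hochberg, two-sided) on the 2364 features with at least 4 values in each group; differences are recovery minus light adapted. The test was run on simulated data first. Ranks, within-array ratios and pair differences were compared by exact two-sided permutation tests. Named were the 3 genes, listed genes on features with 1 gene, and per gene the 3 with the nearest profile. Members and lists were chosen with earlier results of these data known. Same-numbered arrays were taken as pairs, though the labels themselves do not state a pairing. Over 1429 features, deviations from each group's mean correlated weakly between arrays of one number (r from 0.108 to 0.193). Between arrays of unlike number r reached 0.106. Each of the 12 arrays correlated most with the array of its own number in the other group. Alternatives were the replicate block, scaling, pseudocount, filter, set means and omitted arrays. Figures used matplotlib 3.10.9 under Python 3.11.15.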

Additional observations from a re-analysis of the deposited data

Results flagged for a closer look

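In 2 of the 3 genes, 1 array stood far from the other 5 of its group (Dixon's gap over range, above the 95% critical value). Chance alone marks about 1 in 20 groups, and 24 groups of values were examined.

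For L29 (AT5G65220) it was recovery array 6, with a deposited intensity of 0.161 where the next highest was 0.0651, and a normalized log2 level of -2.09 where the next was -3.39. Without it the log2 difference was -3.66 in place of -3.42 (limma adjusted p = 2.40e-07). For L17 (AT3G54210) it was light-adapted array 1, with a normalized log2 level of -5.01 where the next lowest was -2.65, and a rank at the 34.3rd percentile where the next was at 69.4. Recovery array 6 had the highest median intensity of its group, 0.0400 against 0.0358 to 0.0379 on the other 5, and its summed intensity of 2309 was close to the 2288 of array 5. Light-adapted array 1 had a median of 0.103 and a sum of 2557, close to those of array 2, at 0.101 and 2559. The part of these array values in the 2 results was not tested.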

How the results depend on the processing

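Over 24 alternatives the L29 difference lay between -4.01 and -3.02 and was called lower in each (limma adjusted p at most 0.00453), from -3.66 to -3.27 when 1 array was left out. L17 lost its call on the deposited scale (0.81, with and without the replicate block), with 3 set means (1.41), without set 2 (1.76) and without set 3 (1.46), and ran from 0.95 to 1.57 with 1 array left out, losing its call in 6 of 12. L5 reversed on the deposited scale, with and without the replicate block (-0.20), and gained a call after median centring, with and without the block (0.80), with zeros kept (0.75) and without set 3 (0.76). With 1 array left out it ran from 0.51 to 0.82. Over all features, 226 were higher and 870 lower on the deposited scale (236 and 895 with the block) and 199 and 206 with set means, against 438 and 435. With 1 array left out they ran from 397 to 434 and from 376 to 435. Median centring gave 646 higher and 323 lower. The median difference over all features was -0.82 without normalization and 0.19 when arrays were centred on the medians of their values above 0. Listed genes called higher were 0 of 3 tested on the deposited scale (9.56% of all features) and with set means (199 of 2364 features). Without set 2 they were 0 of 4 (334 of 2260 features). After median centring (27.3% of all features) and with zeros kept (520 of 2364 features) they were 2 of 3. With 2 values per group (15.1% of all features) they were 2 of 6. Without set 1 they were 2 of 4 (325 of 2137 features). With 1 array left out they ran from 0 to 2 of 3, beside 397 to 434 of 2115 to 2299 features. Those called lower stayed at 1, beside 376 to 435 features. The L17 over L5 ratio did not pass as pairs (1.01) and normalized (0.78), and ran from 0.64 to 1.23 with 1 array left out, not passing in 7 of 12, where L29 over L17 ran from -5.02 to -4.42 and L29 over L5 from -4.10 to -3.61. The rank gain of L5 did not pass as pairs (10.3). With 1 array left out the rank shifts ran from -34.1 to -29.2 for L29, from 9.39 to 18.3 for L17 and from 8.68 to 12.7 for L5. The replicate block changed no other call of the 3 genes. Why these calls move was not tested. Fits with arrays left out or averaged had fewer samples, and leaving arrays out also repeated the normalization and the filter of features. Signal over background is not given, which limits statements on the dim features.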
